A study of Homo sapiens with 6 samples.

Results

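The 8 CHCHD genes studied here, CHCHD1, CHCHD2, CHCHD3, CHCHD4, CHCHD5, CHCHD6, CHCHD7 and CHCHD10, encode small mitochondrial proteins with a coiled-coil-helix-coiled-coil-helix fold. They were taken by symbol from the 29810 genes of the table, and all 8 were among the 12960 genes tested. The family was chosen because CHCHD10 was lower after I3 in some subsets of the libraries, so the values of CHCHD10 in that comparison are given as a description without a test.

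mRNA-seq was performed on Kasumi-1 cells, a human AML cell line with the RUNX1-RUNX1T1 fusion. Cells of 3 libraries were incubated with 0.25 μM I3, an inhibitor of histone deacetylases (HDAC), for 48 h. Those of 3 control libraries were kept as long, and per the methods DMSO was given to controls in the amount that came with I3. All 6 libraries come from a single cell line, and the labels do not say whether they came from separate cultures. The methods state in general that experiments were repeated, without naming the libraries, so p-values measure the spread between these libraries, which may be technical.

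Mature CHCHD proteins are held in shape by disulfide bonds between pairs of cysteines at fixed spacing, the twin CX9C motif. They are made in the cytosol and enter the mitochondrial intermembrane space reduced. There CHCHD4, also called MIA40, oxidizes them and so traps most of them, and the electrons pass on to GFER. Members of the family help to shape cristae, build cytochrome c oxidase and complete the mitochondrial ribosome, and AML cells are known for their reliance on mitochondrial respiration.

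The values are FPKM, which is fragments scaled by gene length and by library size, so that levels of different genes may be set side by side. Multiplied by the exon length of the gene, all 6 values of each of the 8 genes were whole multiples of the worth of 1 read, within 0.1 read. Exon lengths were those of all annotated exons joined, and a gene with long, rarely used exons therefore has a low FPKM. The depth that follows was 17500303 to 18193362 reads per library. Of the Kasumi-1 markers, MPO was between 7740 and 8612 FPKM, KIT between 198 and 225 FPKM and RUNX1T1 between 14.1 and 17.0 FPKM. Of the markers of other cells, IGHM was listed at 0 in every library, and HBA1 and COL1A1 were at 0.136 FPKM or less. CD79A was at 0.897 to 1.90 FPKM, CD8A at 1.65 to 2.84 FPKM and EPCAM at 28.2 to 31.6 FPKM, in both groups. The other T cell markers were lower, with CD3D at 0.118 to 1.09 FPKM and CD3E at 0 to 0.179 FPKM. KRT19 and CDH1, the other epithelial markers, were not listed, nor was the B cell marker MS4A1. Fewer cells of a kind and less RNA per cell cannot be told apart in such bulk libraries.

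Short stretches of the promoters are shown to place the genes in the regulation of nuclear genes for mitochondrial proteins. RefSeq promoter windows (GRCh38.p14, 250 bases before to 50 bases after the start) were found for 7 of the 8 genes, in 9 windows. The 5 motifs searched, on both strands, were that of NRF1, a regulator of respiratory genes, ETS (CCGGAAG), the CCAAT box (CCAAT), the GC box (GGGCGG) and CRE (TGACGTCA). The capitals mark the match, and each line is read 5′ to 3′ on the strand of the gene, so that a match on the opposite strand appears as its reverse complement.
CHCHD10, GC box 16 bases before the start, chr22:23767971-23768000, minus strand: gttcctgaggccCCGCCCggggccccgcct
CHCHD2, ETS 14 bases before the start, chr7:56106472-56106501, minus strand: ccgcctcccatCTTCCGGtctcctcagaag
CHCHD4, NRF1 152 bases before the start, chr3:14125003-14125032, minus strand: cagtgtttctGCGCATGCGCgcggcgagac
CHCHD4, NRF1 87 bases before the start, chr3:14124938-14124967, minus strand: cctcattgatGCGCCTGCGCactgcaaagc
CHCHD3, CCAAT box 100 bases before the start, chr7:133082173-133082202, minus strand: gggtcgggtgaaCCAATccgggcgccctcg
CHCHD6, CCAAT box 50 bases before the start, chr3:126704178-126704207, plus strand: ctctggcgtcggCCAATaggacgtggcttt

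NRF1 letters were found in the window of CHCHD4 and in none of the other 6 genes with a window, against 5.78% of all 35116 promoter windows. ETS letters were found for CHCHD2 and CHCHD5, and CCAAT letters for CHCHD2, CHCHD3, CHCHD5 and CHCHD6, against 10.3% and 34.6% of all windows. The shares are per window, and CHCHD5, which has several windows, lacked ETS or CCAAT letters in some of them. The window of CHCHD10 held a GC box, as did those of CHCHD5 and as did 45.0% of all windows, and none of the other 4 motifs. CRE letters were in none of the 9 windows and in 1.85% of all. The GC content of the CHCHD10 window was 69.0%, the highest of the 9, against a median of 58.7% over all windows. It lies within the annotated gene, whose upstream end is further out. These matches describe letters, not binding.

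CHCHD2 was by far the most abundant member, and CHCHD10, its closest paralog, came next in control cells. The order of the mean control levels was CHCHD2, CHCHD10, CHCHD3, CHCHD1, CHCHD4, CHCHD6, CHCHD7 and CHCHD5. The ranges of neighbours in this order did not overlap over the 3 control libraries. CHCHD2 stood at the 99.2nd percentile of the tested genes by control level, CHCHD10 at the 94.6th and CHCHD5 at the 32.4th. By the mean of the I3 libraries CHCHD10 came between CHCHD1 and CHCHD4, but no single I3 library had it there. It was above CHCHD3 in I3 1, as in the controls, and between CHCHD4 and CHCHD6 in I3 2 and I3 3. Its I3 range overlapped with those of CHCHD3, CHCHD1 and CHCHD4, and the other members kept their order by mean.

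**Figure D1:**
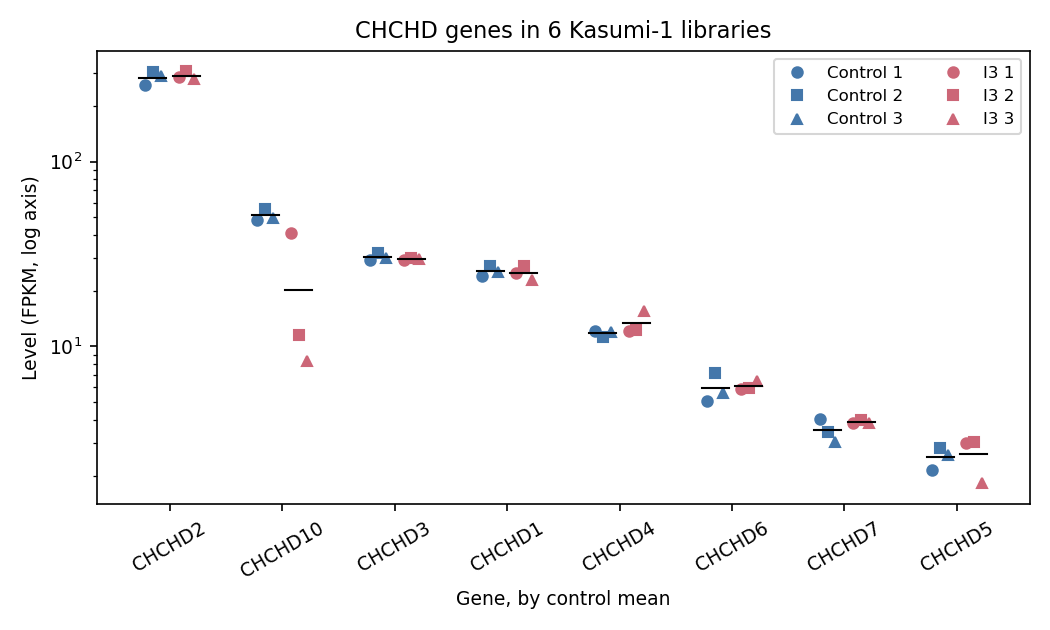
Level of the 8 CHCHD genes in FPKM (log axis), ordered by control mean, in 3 control libraries (blue) and 3 I3 libraries (red), with a symbol for each replicate number and a black line at the group mean. CHCHD10 lay between 48.5 and 55.5 FPKM in the controls and at 40.9, 11.5 and 8.37 FPKM in I3 1, 2 and 3, whereas the groups lay close together for the other genes.

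CHCHD10 (ENSG00000250479, minus strand of chromosome 22 from 23765834 to 23768443) encodes an intermembrane space protein that forms complexes with CHCHD2 and is mutated in inherited motor neuron disease and myopathy. It had 48.5, 55.5 and 49.5 FPKM in control 1, 2 and 3, and 40.9, 11.5 and 8.37 FPKM in I3 1, 2 and 3. All 3 I3 libraries were below all 3 control libraries, but they were far apart from each other, with I3 1 near the controls. As a share of the control mean, CHCHD10 stood at 79.9% in I3 1, 22.5% in I3 2 and 16.4% in I3 3.

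The mean of CHCHD10 was 51.1 ± 3.79 FPKM (SD, n = 3) over the controls and 20.2 ± 17.9 FPKM (SD, n = 3) over the I3 libraries. On the log2(FPKM + 0.5) scale this made a log2 fold change of -1.65, with a standard error of 0.508. The estimate was -2.32 without I3 1, -1.43 without I3 2 and -1.21 without I3 3, so that I3 1 moved it most. These values rest on 1165, 1343 and 1177 reads in the controls and on 990, 279 and 207 reads in I3 1, 2 and 3.

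The values that chose the family came from the limma fit without I3 1. There CHCHD10 had an adjusted p of 0.0114 and EBPL, an emopamil binding protein relative, had an adjusted p of 0.00961. CHCHD10 and EBPL were the 2 genes called lower in that fit, 0.0155% of the 12927 genes tested. The p-value of CHCHD10 there records the choice and is no test of a difference. Just outside the threshold, CMTM8 and NPW both had an adjusted p of 0.0517. With all 6 libraries limma called 0.0% of the tested genes (0 genes, the smallest adjusted p being 0.309), although 639 genes had an unadjusted p under 0.05.

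The split of the I3 libraries in CHCHD10 was wide, and it belongs to the values that chose the family. Its highest and lowest I3 values were 2.22 apart on the log2 scale, and 5 of the 6642 tested genes with a mean of at least 5 FPKM had a wider range, against a median range of 0.162. Among the control libraries the range of CHCHD10 was 0.192, close to the median of 0.185, and 3165 genes had a wider one. The library labelled I3 1 was thus near the controls in CHCHD10, and I3 2 and I3 3 were far below both.

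The transcripts of CHCHD10 are rich in G and C, with a median GC content of 67.1%, more than in 98.6% of the tested genes. The level of genes in a library also went with GC content, differently from library to library. Across 12939 genes, which are not independent replicates, GC content and the log2 deviation had a rank correlation of -0.232 in I3 1, 0.262 in I3 2 and -0.446 in I3 3, and of -0.313, 0.446 and 0.337 in control 1, 2 and 3. The part of this trend in the values of CHCHD10 was not tested. After each library's GC trend was removed, the deviations of CHCHD10 from its own mean were 0.55, -1.31 and -1.57 in I3 1, 2 and 3 on the log2 scale, against 0.51, -1.27 and -1.71 before. With this correction the fold change was -1.55 on the log2 scale.

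The exons of CHCHD10 share 218 nt at their 5′ end with MMP11 and 28 nt at their 3′ end with C22orf15, both on the opposite strand. These genes had few reads, at most 39 for MMP11 and 15 for C22orf15 in a library. Of the genes within 100 kb on either side, 5 others were tested. Their log2 fold changes lay between -0.068 and 0.18, and 0 of the 5 had an unadjusted p under 0.05, which 4.93% of all tested genes reached. Of these 5, only ZNF70 had groups that did not overlap, with I3 higher, where 9.7% of all tested genes had such groups. SMARCB1, the most abundant of them and a subunit of the SWI/SNF chromatin remodelling complex, had 59.8, 67.4 and 63.3 FPKM in the controls and 59.8, 63.0 and 58.7 FPKM after I3. This window was chosen after the values had been seen.

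CHCHD2 (ENSG00000106153, minus strand of chromosome 7 from 56101569 to 56106576) encodes the paralog of CHCHD10, which takes part in respiration and in cristae and is linked to inherited Parkinson disease. It had 260, 305 and 289 FPKM in control 1, 2 and 3 and 285, 308 and 279 FPKM in I3 1, 2 and 3. The groups overlapped, and the lowest value was in control 1. I3 and control differed by 0.033 on the log2 scale, with a 95% interval of -0.14 to 0.20 (adjusted p = 0.998 from limma, by Benjamini-Hochberg).

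The ratio of the CHCHD2 level to the CHCHD10 level was 5.36, 5.49 and 5.84 in control 1, 2 and 3. It was 6.98 in I3 1, 26.7 in I3 2 and 33.3 in I3 3. Since CHCHD2 was between 260 and 308 FPKM in every library, the wide gap in this ratio lay on the side of CHCHD10. CHCHD10 made up 11.9% to 12.6% of the summed level of the 8 genes in the controls, 10.1% in I3 1, and 2.87% and 2.28% in I3 2 and I3 3. The other 7 members summed to 364 ± 26.1 FPKM (SD, n = 3) over the controls and to 371 ± 16.7 FPKM (SD, n = 3) over the I3 libraries.

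None of the 7 members other than CHCHD10 passed a threshold, with 0 at the adjusted p and 0 at an unadjusted p under 0.05, which 4.93% of all tested genes reached. Of these 7 genes, 5 had a log2 fold change above 0 and 2 below, with a median of 0.033, against a median of 0.011 over all tested genes. Their 95% intervals lay between -0.41 and 0.45 and so inside the fold threshold of 0.58. CHCHD4 and CHCHD10 were the 2 members whose groups did not overlap, where 9.7% of all tested genes had such groups and 4.64% had them with I3 lower. CHCHD10 alone passed the fold threshold, as did 2.77% of all tested genes, 1.2% with I3 lower. The part of CHCHD10 in these counts follows from the choice of the family.

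**Figure D2:**
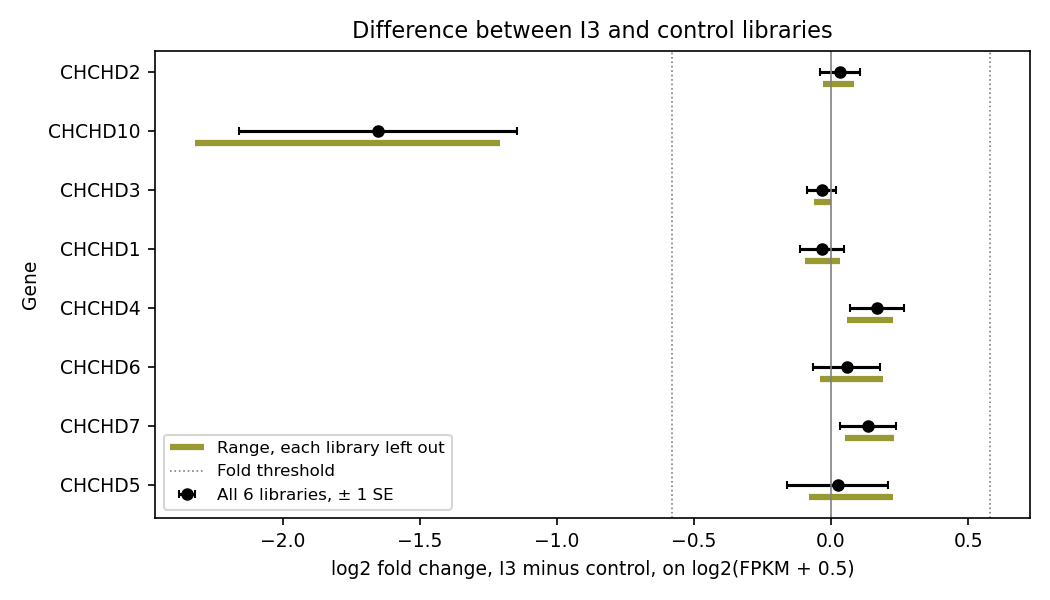
log2 fold change of the 8 CHCHD genes between I3 and control libraries on log2(FPKM + 0.5), with points and bars for the limma estimate ± 1 standard error over 6 libraries, and thick lines for the range when each library was left out in turn. CHCHD10 ranged from -2.32 to -1.21, and the other 7 genes stayed within the dotted lines at 0.58 in either direction.

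CHCHD4 (ENSG00000163528, minus strand of chromosome 3 from 14112077 to 14124870), the oxidoreductase that imports the other twin CX9C proteins, had 12.1, 11.2 and 11.9 FPKM in control 1, 2 and 3. It had 12.2, 12.3 and 15.5 FPKM in I3 1, 2 and 3. All I3 libraries were above all controls (exact permutation p = 0.1, two-sided, and no smaller p is possible with 3 against 3 libraries), but I3 1 was level with control 1, with 384 against 380 reads. I3 3 stood apart at the top. The estimate was 0.17 on the log2 scale, with a standard error of 0.0996 and an interval of -0.066 to 0.40 (adjusted p = 0.998 from limma), and it was 0.058 without I3 3.

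The partners of CHCHD4 in the import relay were measured in the same libraries. GFER, the sulfhydryl oxidase that takes electrons from CHCHD4, had 2.49, 2.13 and 1.96 FPKM in the controls and 1.86, 2.43 and 1.10 FPKM after I3. AIFM1, which binds CHCHD4 and helps the import of CHCHD4, was at 22.9 ± 1.95 FPKM (SD, n = 3) over the controls and at 22.4 ± 0.80 FPKM (SD, n = 3) over the I3 libraries. Their log2 fold changes were -0.27 and -0.028, both with an adjusted p of 0.998 from limma, and the groups overlapped for both genes.

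CHCHD3 and CHCHD6 encode MIC19 and MIC25, related subunits of the MICOS complex that holds cristae junctions together. CHCHD3 (ENSG00000106554, minus strand of chromosome 7 from 132784868 to 133082088) had 29.3, 32.0 and 30.1 FPKM in control 1, 2 and 3 and 29.4, 30.1 and 29.8 FPKM in I3 1, 2 and 3. It varied least of the 8 genes, with the highest value 1.09 times the lowest. Its log2 fold change was -0.034, with an interval of -0.16 to 0.093 (adjusted p = 0.998 from limma). A processed pseudogene on the same strand covers 5.02% of its exon length.

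CHCHD6 (ENSG00000159685, plus strand of chromosome 3 from 126704220 to 126960406) had 5.06, 7.16 and 5.56 FPKM in control 1, 2 and 3 and 5.89, 5.98 and 6.52 FPKM in I3 1, 2 and 3. The controls enclosed the I3 libraries, with control 2 at the top. On the log2 scale the difference was 0.057, with an interval of -0.23 to 0.34 (adjusted p = 0.998 from limma). In control cells the level of CHCHD3 was 30.5 ± 1.39 FPKM (SD, n = 3), against 5.93 ± 1.09 FPKM (SD, n = 3) for CHCHD6.

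CHCHD1 encodes mS37, a protein of the small subunit of the mitochondrial ribosome. CHCHD1 (ENSG00000172586, plus strand of chromosome 10 from 73782047 to 73783652) had 24.1, 27.2 and 25.3 FPKM in control 1, 2 and 3 and 25.0, 27.2 and 22.8 FPKM in I3 1, 2 and 3. The groups overlapped, and the extremes of the 6 values were both in I3 libraries. CHCHD1 had a log2 fold change of -0.032, with an interval of -0.22 to 0.16 (adjusted p = 0.998 from limma).

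CHCHD7 is the human relative of yeast Cox23, a factor for the assembly of cytochrome c oxidase. CHCHD7 (ENSG00000170791, plus strand of chromosome 8 from 56211686 to 56218798) had 4.03, 3.46 and 3.04 FPKM in control 1, 2 and 3 and 3.84, 3.99 and 3.83 FPKM in I3 1, 2 and 3. Control 1 was above all I3 libraries and the other controls below them, and the I3 values lay close together (coefficient of variation 2.24%, against 14.2% in the controls). For CHCHD7 the log2 fold change was 0.14, with an interval of -0.10 to 0.38 (adjusted p = 0.998 from limma). It was 0.050 without control 3 and 0.23 without control 1. Its joined exons are the longest of the family, at 5866 nt.

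CHCHD5, a substrate of CHCHD4, was the member with the lowest level. CHCHD5 (ENSG00000125611, plus strand of chromosome 2 from 112584240 to 112589275) had 2.15, 2.82 and 2.60 FPKM in control 1, 2 and 3 and 3.02, 3.03 and 1.81 FPKM in I3 1, 2 and 3. I3 1 and I3 2 were above all controls and I3 3 was below them. For CHCHD5 the log2 fold change was 0.024, with an interval of -0.41 to 0.45 (adjusted p = 0.999 from limma), the widest of the 7 genes. A noncoding RNA on the same strand covers 5.48% of its exon length. Its 124 to 203 reads per library alone give a coefficient of variation of 7.62%, against 26.7% in the I3 libraries.

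The genes whose levels followed CHCHD10 most closely over the 6 libraries were looked for among the 6641 other tested genes with a mean of at least 5 FPKM. Likeness was the root mean square difference of the deviations from each gene's own mean on the log2 scale. The nearest genes were ENDOG (0.414), EVA1B (0.419), NPW (0.472), CITED4 (0.511) and CEBPD (0.511), against a median difference of 1.08 over all these genes. The other 7 CHCHD genes were at 1.02 to 1.19. A gene with the same value in every library would be at 1.07, the root mean square of the deviations of CHCHD10 itself. ENDOG, a mitochondrial endonuclease, had 9.61, 13.2 and 13.3 FPKM in control 1, 2 and 3 and 7.42, 4.99 and 2.25 FPKM in I3 1, 2 and 3.

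NPW, a neuropeptide precursor, was the most abundant of these genes, with 231, 205 and 218 FPKM in control 1, 2 and 3 and 212, 100 and 77.6 FPKM in I3 1, 2 and 3. CEBPD, a transcription factor of myeloid cells, had 36.1, 34.9 and 33.8 FPKM in the controls and 28.6, 17.8 and 11.8 FPKM after I3. The order I3 1, I3 2, I3 3 from high to low was common to all 5 genes and CHCHD10, as the measure of likeness favours. The 5 genes are all rich in GC, between 67.7% and 73.5%, where the median of the tested genes is 49.3%, and the part of GC content in their likeness to CHCHD10 was not tested. Their log2 fold changes were -1.33 to -0.88, and -1.23 to -0.70 after removal of the GC trend. Lower values after I3 follow from the choice of these genes for likeness to CHCHD10 and are no separate result.

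EBPL was called by the same fit without I3 1 as CHCHD10, and its split between libraries follows from that choice. It had 64.1, 62.3 and 61.5 FPKM in control 1, 2 and 3 and 58.3, 27.7 and 26.3 FPKM in I3 1, 2 and 3. These values are a description of the other gene that this fit chose.

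**Figure D3:**
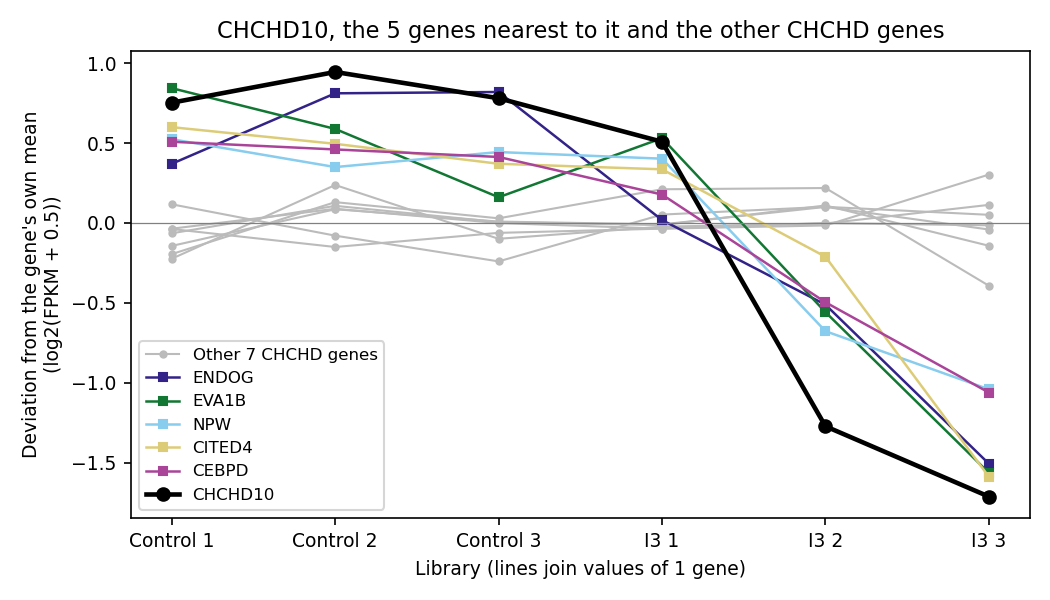
Deviation of each gene from its own mean over 6 libraries on log2(FPKM + 0.5), for CHCHD10 (black), the 5 genes nearest to it (colours) and the other 7 CHCHD genes (grey), with lines joining the values of 1 gene. CHCHD10 was at 0.51 in I3 1, -1.27 in I3 2 and -1.71 in I3 3. The grey lines varied less and departed furthest in I3 3, with CHCHD5 at -0.39 and CHCHD4 at 0.30.

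Genes that work with the CHCHD proteins were counted in 6 lists of 71 genes, of which 67 were tested. At an unadjusted p under 0.05, 3 of the 67 were higher and 1 was lower after I3, and 0 passed the adjusted p in limma. Over all tested genes 4.93% had such a p, and 9.7% had groups that did not overlap. The 4 genes at an unadjusted p under 0.05 are given here with their levels. Since they were picked by their p, groups that do not overlap are no separate result. Among the other tested list genes, APOO was without overlap and higher after I3, and IMMT and MRPS6 were without overlap and lower. COA5, a twin CX9C factor for cytochrome c oxidase, had 9.44, 10.1 and 9.77 FPKM in control 1, 2 and 3 and 10.9, 11.2 and 11.7 FPKM in I3 1, 2 and 3. TIMM8A, a chaperone of the intermembrane space, had 5.56, 5.68 and 5.54 FPKM in the controls and 6.98, 5.96 and 6.88 FPKM after I3. In both genes all I3 libraries were above all controls, with log2 fold changes of 0.19 (adjusted p = 0.845 from limma) and 0.22 (adjusted p = 0.948).

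OMA1, the stress protease of the inner membrane that is known to respond to damage from mutant CHCHD10, had 3.18, 3.25 and 2.92 FPKM in control 1, 2 and 3 and 3.55, 3.82 and 3.65 FPKM in I3 1, 2 and 3. AFG3L2, a subunit of a quality control protease of the same membrane, had 18.4, 18.5 and 18.8 FPKM in the controls and 17.7, 16.0 and 16.3 FPKM after I3. The groups did not overlap in either gene. The log2 fold changes were 0.21 (adjusted p = 0.984 from limma) and -0.15 (adjusted p = 0.998).

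The counts by list are to be read against the 4.93% of all tested genes at an unadjusted p under 0.05. The other twin CX9C proteins had 1 higher and 0 lower of 13 tested, by unadjusted p, with a median log2 fold change of 0.024. The small TIM chaperones had 1 of 6 higher and 0 lower (median 0.027), and the inner membrane proteases and stress relay 1 of 10 higher and 1 lower (median 0.025). Of the 9 tested genes of MICOS and the sorting machinery, with which CHCHD3 and CHCHD6 work, 0 passed (median 0.016). The small subunit of the mitochondrial ribosome, to which CHCHD1 belongs, had 0 of 27 (median -0.041), and the 2 import partners of CHCHD4 had 0 (median -0.15). The median over all tested genes was 0.011. None of the 67 genes reached a log2 fold change of 0.58 in either direction, which 2.77% of all tested genes did.

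**Figure D4:**
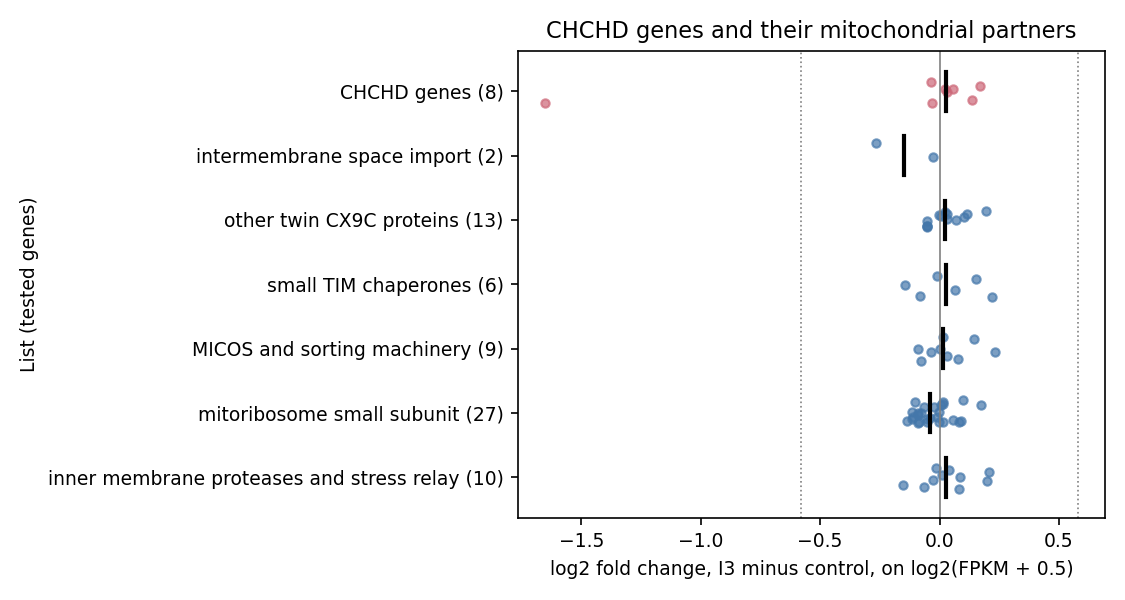
log2 fold change between I3 and control libraries on log2(FPKM + 0.5) for the 8 CHCHD genes (red) and the 67 tested genes of 6 partner lists (blue), 1 point per gene, with a black line at the median and dotted lines at 0.58 in either direction. CHCHD10 at -1.65 is the only point past the dotted lines, and the list medians lie between -0.15 and 0.027.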

How the data were processed

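The members and lists were chosen with earlier results of these data known. The authors deposited FPKM for each gene, with 1 column per library, from stranded libraries of polyadenylated RNA. The submitters' processing notes name Trimmomatic, HISAT2, Cufflinks, HTSeq and the build hg38 without versions, and no annotation is named in the sources used here. The labels name the compound I3, and the name of the deposited table I13. A figure legend of the study gives a longer incubation than the labels and methods.

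Of 29810 identifiers, 29703 were found in GENCODE release 29, which gave coordinates on GRCh38, joined exon lengths and transcript GC content. Reads were rebuilt from FPKM and exon length, and all 6 values were whole within 0.1 read for 95.7% of 26519 genes above 0. Libraries were compared with limma 3.58.1 under R 4.3.3 (eBayes with trend, two-sided) on log2(FPKM + 0.5), 3 I3 against 3 control libraries without covariates, over the 12960 genes whose mean reached 0.5 FPKM, and p-values were adjusted by Benjamini-Hochberg. As thresholds the study's 0.05 for the adjusted p and 0.58 for the absolute log2 fold change were kept. The study applied them with DESeq, another model, and reported genes changed in both directions, so the calls here do not repeat its count. Fold changes on this scale understate the change of genes with a low FPKM. Exact permutation tests used scipy 1.17.1, and plots matplotlib 3.10.9. Named genes are the 8 members, their pseudogenes, the 5 genes nearest to CHCHD10 by the measure given, and cell markers. Genes of the fit that chose CHCHD10 and the import partners are named too. So are tested list genes at an unadjusted p under 0.05 or with groups that did not overlap. Neighbouring and overlapping genes, and the genes just outside the threshold of that fit, were chosen after their values were seen. Alternatives were pseudocounts, minimums, scalings, no trend, the replicate number as a block, a GC correction (lowess, span 0.3), voom on rebuilt reads and each library left out. No replicates were the same library deposited again: chi-square per degree of freedom on rebuilt reads was at least 4.57 (12326 genes). Intervals of log2 fold changes come from limma.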

Additional observations from a re-analysis of the deposited data

How the results depend on the processing

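In the 12 alternatives that kept all 6 libraries, 0 genes passed the adjusted p and fold thresholds. Leaving out each library in turn gave 0 to 1 called higher (1 without control 1) and 0 to 2 called lower (2 without I3 1, 1 without I3 2). The log2 fold change of CHCHD10 was between -1.70 and -1.55 with all libraries and from -2.32 (without I3 1) to -1.21 (without I3 3) when each was left out. The other 7 members stayed under the thresholds in all alternatives (adjusted p from limma 0.435 to 1.00), and CHCHD4 and CHCHD7 kept their direction. With single libraries left out, the sign turned for CHCHD1 (-0.094 to 0.032), CHCHD2 (-0.030 to 0.084), CHCHD3 (-0.061 to 0.0012), CHCHD5 (-0.079 to 0.23) and CHCHD6 (-0.040 to 0.19), and the cause was not tested. CHCHD5 and CHCHD7 could not be fitted at a minimum mean of 5 FPKM, which removes them. The replicate block, with the shared replicate numbers of the labels as a block, changed no call (0 genes, and -1.65 for CHCHD10). The correlations of same-numbered libraries were 0.063, 0.151 and -0.024, against -0.172 to 0.101 for the other pairs. Control 2 and I3 2 were each other's best match, and control 3 and I3 3 were not. Control 1 matched I3 3 best. With 3 libraries per group these correlations cannot decide whether the numbers pair the libraries, and the labels do not say. Depth was alike in all libraries. Counting error was largest for CHCHD5, with 124 to 203 reads (coefficient of variation 7.62%), and was below its spread of 26.7% in the I3 libraries.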

Other observations

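Pseudogenes of the family took few of the reads. The table lists 6 of them, CHCHD2P2, CHCHD2P6, CHCHD2P9, CHCHD2P11, CHCHD3P3 and CHCHD4P5, and the highest value in a library was 9 reads, for CHCHD2P6, beside 5195 to 6200 reads for CHCHD2 itself.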
